A study of Mus musculus with 8 samples.

Results

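A set of 30814 genomic regions carried a peak of native Nr5a2 and a peak of its BiD fusion and no peak of any other factor profiled in mouse embryonic fibroblasts (MEFs). The peaks of all 8 lists were merged into 306466 union regions at an overlap of 1 bp or more. The members were chosen by which libraries had a peak in a region, so their presence in both Nr5a2 lists and absence from the other 6 is no result. They made up 10.1% of the union regions and 47.8% of the 64503 regions with peaks of both Nr5a2 libraries. All but 5 members lay on placed chromosomes, and the 30809 others were used wherever sequence or annotation was read.

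Binding was mapped by CUT&Tag, where the transposase Tn5 is tethered to a bound antibody and cuts and tags the DNA nearby for sequencing. The antibody recognised Flag, the tag on the delivered factor, and the MEFs were at day 3 of reprogramming. Per the study's methods, they came from E13.5 embryos of OG2 males, which carry an Oct4-GFP reporter, and 129 females, and factors were delivered with retroviruses. The groups were native Nr5a2, Nr5a2BiD, native Nanog, NanogBiD, native Oct4, Oct4BiD, native Sox2 and Sox2BiD, with 1 library each, where BiD is the BRG1-interacting domain of SS18, fused N-terminally (BRG1 is the motor subunit of BAF, which remodels chromatin). All groups share the reporter MEFs and the antibody, and from the sample names it is not known what else was delivered to the cells. The libraries hold DNA and not RNA, so the labelled cell type could not be checked against its markers.

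NR5A2, also called LRH-1, is an orphan nuclear receptor that binds DNA mainly as a monomer. Its zinc fingers read a hormone-receptor element, AGGTCA or a close relative, and an extension of its DNA-binding domain reads the bases just before it, so that the full site takes the form of TCAAGGTCA. In the liver it controls bile acid and cholesterol genes, in the ovary genes of steroid synthesis and in the exocrine pancreas digestive enzymes, and in early embryos and embryonic stem cells it acts in the pluripotency network, where it can activate Oct4.

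Sequences are shown first, since the finding below rests on them. The consensus searched, called the NR5A motif, was one of the 4 spellings TCAAGGTCA, TCAAGGCCA, CCAAGGTCA and CCAAGGCCA on either strand, and every one of these holds the 5-letter core CAAGG. The first 4 sequences are the strongest member with each spelling, ranked by the lower of its native and BiD scores, as the 101 bp around the native summit, 5′ to 3′ on the strand that reads the motif, in mm10 coordinates. Capitals mark the motif and every copy of the core, which reads CCTTG where it lies on the opposite strand. All 4 lie in introns and are named by the nearest start site of a protein-coding gene, at chr16:42134398-42134498 (plus strand, 9.54 kb from Lsamp), chr16:38915550-38915650 (minus strand, 13.1 kb from Igsf11), chr12:84533877-84533977 (minus strand, 3.88 kb from Lin52) and chr6:85610692-85610792 (minus strand, 23.1 kb from Alms1).
Lsamp: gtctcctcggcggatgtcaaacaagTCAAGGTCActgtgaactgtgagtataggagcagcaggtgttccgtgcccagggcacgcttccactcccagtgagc
Igsf11: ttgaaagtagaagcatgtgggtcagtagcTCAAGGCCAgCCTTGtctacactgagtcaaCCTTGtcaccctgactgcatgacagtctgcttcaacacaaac
Lin52: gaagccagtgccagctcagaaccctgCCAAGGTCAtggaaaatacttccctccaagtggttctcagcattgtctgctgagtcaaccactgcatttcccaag
Alms1: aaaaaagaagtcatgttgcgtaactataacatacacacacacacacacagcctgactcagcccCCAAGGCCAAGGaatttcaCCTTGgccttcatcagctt

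The next 4 are among the 12 strongest members, none of which held an exact spelling within 50 bp of its native summit. Over all members 12.04% held one there, a share at which few of 12 would. The 4 printed were picked after their sequences were seen, because they hold the core without the full motif. All are on the plus strand, at chr5:49525413-49525513 (556 bp from a Kcnip4 start site), chr17:35142021-35142121 (a coding exon, 94 bp from a Bag6 start site), chr8:25843663-25843763 (an intron, 2.93 kb from an Ash2l start site) and chr14:123446112-123446212 (an intron, 75.1 kb from a Nalcn start site).
Kcnip4: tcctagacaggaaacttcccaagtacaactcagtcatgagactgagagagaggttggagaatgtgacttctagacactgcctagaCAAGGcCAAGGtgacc
Bag6: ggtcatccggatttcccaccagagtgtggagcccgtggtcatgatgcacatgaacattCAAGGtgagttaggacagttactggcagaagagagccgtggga
Ash2l: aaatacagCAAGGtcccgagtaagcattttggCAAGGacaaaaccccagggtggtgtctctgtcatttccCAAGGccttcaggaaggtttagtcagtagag
Nalcn: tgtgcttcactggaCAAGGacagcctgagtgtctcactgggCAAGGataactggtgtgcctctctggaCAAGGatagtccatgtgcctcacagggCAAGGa

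The last sequence is the promoter of Nr0b2 (also called SHP), a corepressor in bile acid feedback and a textbook target of NR5A2. Shown are the 250 bp before its start site from the RefSeq promoter table of GRCm38.p6, the assembly of mm10, chr4:133553126-133553375 on the plus strand. A member overlapped this stretch. It held no exact spelling and 3 copies of the core.
Nr0b2: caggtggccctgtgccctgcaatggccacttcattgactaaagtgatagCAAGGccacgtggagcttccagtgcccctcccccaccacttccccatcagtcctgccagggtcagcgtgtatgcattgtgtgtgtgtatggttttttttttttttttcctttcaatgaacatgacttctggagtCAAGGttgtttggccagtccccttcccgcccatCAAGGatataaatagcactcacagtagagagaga

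The members stood above the middle of the native list and near the middle of the BiD list, and most had both summits at nearly the same place. The deposited score is 10 times the negative log10 of the peak caller's p-value, and the summit height is the number of tags at the highest point, not scaled to depth. The native score ran from 50.01 through a median of 172 to 1333, and the native summit height from 8 through 25 to 117 tags. The BiD score ran from 50 through a median of 113 to 1313, and the BiD height from 9 through 21 to 102 tags. Ranked within its own list, the median member stood at percentile 63.7 of the native scores and at percentile 48.2 of the BiD scores. The rule enters these ranks, since it left out 30512 regions of native Nr5a2 alone and 5524 of Nr5a2BiD alone. Of the members, 30463 (98.9%) held 1 peak of each library. The median width was 927 bp (quartiles 752 and 1220), and the native and BiD summits were a median of 33 bp apart, within 100 bp in 85.3%.

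Some members were only just called. In 1405 members (4.56%) the native score was under 60, and in 3413 (11.1%) the BiD score was, against the lowest score of 50 in every list. Just outside the rule were 7880 regions with both Nr5a2 peaks and a peak of exactly 1 other library. That other peak was most often one of Sox2BiD (38.7% of these regions) or Oct4BiD (22.7%) and least often one of native Sox2 (2.39%), and its median score was 93.0. Sox2BiD and Oct4BiD also had the longest of the other lists, with 120594 and 93978 peaks. Native Sox2 and native Oct4 had the shortest, with 58162 and 54794. The part of list length in these shares was not tested. Around the members, the nearest peak of another factor was a median of 2450 bp away. It was within 100 bp of 806 members (2.62%), within 1000 bp of 7779 (25.2%), and over 10 kb away from 3411 (11.1%). Of the 1000 highest-scoring native Nr5a2 regions 28.4% were members (95% exact Clopper-Pearson interval 25.6 to 31.3), and of the 1000 highest-scoring Nr5a2BiD regions 19.8% (17.4 to 22.4). Among the best 20000 the shares were 37.98% and 33.7%, and of all peaks 28.7% of the native list and 40.7% of the BiD list lay in members.

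The summit was lower in the BiD library than in the native one in 66.1% of members. The median log2 ratio of the heights, BiD over native, was -0.23 (quartiles -0.56 and 0.09). In regions that 1, 2, 3, 4, 5 and 6 other libraries also occupied, the median was -0.21, -0.13, -0.16, -0.14, -0.18 and -0.10, with no steady trend, and with 5 other libraries the BiD summit was the lower one in 65.7%. The heights are not scaled to depth. Per the reporting summary, the Nr5a2BiD library had more read pairs than the native one. With 1 library per group, no test between groups was possible for any value here. All intervals cover counting error over regions and not the spread between cultures.

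The NR5A motif lay within 50 bp of the native summit in 3708 of 30809 members, 12.04% (11.7 to 12.4). Equally wide windows placed 500 bp to the left and the right held it in 1.29%. The share at the summit was thus 9.35 times that in the flanks (8.66 to 10.1). Over the union regions of all libraries, taken at the summit of their highest-scoring peak, 3.60% held the motif. The regions of both Nanog, both Oct4 and both Sox2 libraries only, which number 11593, 15427 and 20296, were the sets built by the same rule for another factor. The motif was found at the summit of 0.362% (0.261 to 0.489), 0.376% (0.286 to 0.486) and 0.276% (0.209 to 0.358) of them, in each case less often than in their own flanks, with ratios of 0.459, 0.468 and 0.368. All 3 intervals lay below that of the members. By their rule these 3 sets hold no region with an Nr5a2 peak, which can itself lower their share with the motif. The size of that part was not tested.

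Matches of the motif were most frequent on either side of the summit and fewer on the summit itself. For NR5A in bins of 10 bp, 597 matches had their centre 20 to 29 bp to the right of the native summit and 517 had it 21 to 30 bp to the left, while the bin that ends just before the summit held 280 and the one that starts at it 345. Per 1000 members this is 19.4 and 16.8 matches on the sides and 9.09 and 11.2 in the middle. The count had fallen to 50 in the bin that starts 130 bp to the left and to 54 in the one that starts 130 bp to the right, and it stood at 88 in the bins that start 160 bp away on either side. AP-1, the element of FOS and JUN proteins, had no such dip, with 224 matches in the bin just before the summit, 211 in the next and 243 in its highest bin.

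**Figure D1:**
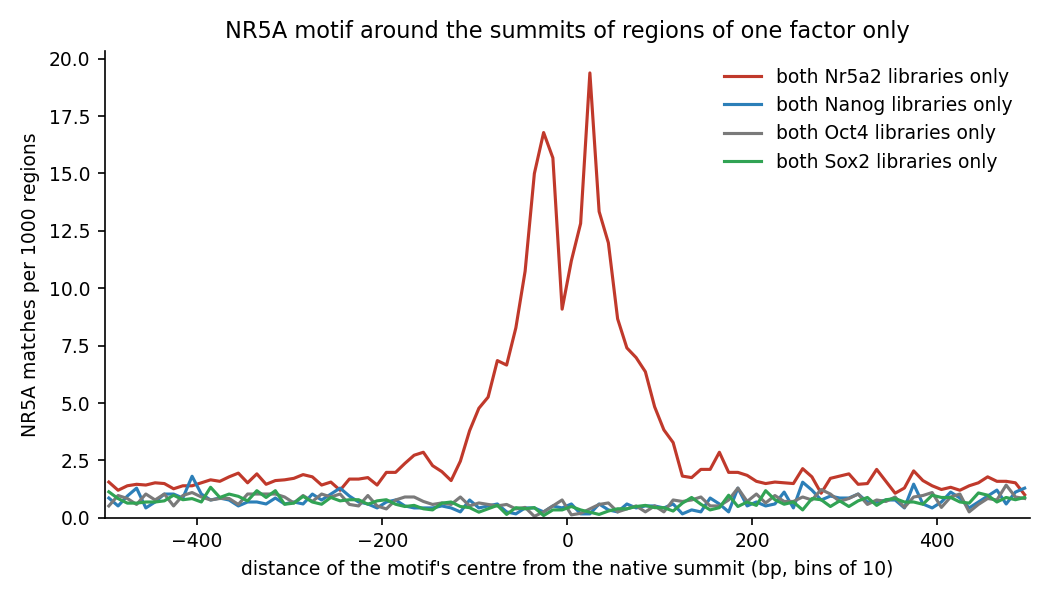
Matches of the NR5A motif per 1000 regions (vertical axis) against the distance of the motif's centre from the native summit in bp, in bins of 10 bp, for the regions of both libraries of 1 factor only. The members peak at 16.8 and 19.4 per 1000 on the left and the right of the summit and dip to 9.09 between, while the other 3 sets show no peak.

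The 4 spellings were about equally common at the summits but not in the flanks. TCAAGGTCA was within 50 bp of the summit in 3.36% of members, TCAAGGCCA in 3.25%, CCAAGGTCA in 3.03% and CCAAGGCCA in 2.84%. Over the flanks these were 10.5 times (9.01 to 12.2), 5.96 times (5.27 to 6.75), 16.7 times (13.7 to 20.3) and 11.3 times (9.52 to 13.4). The low ratio of TCAAGGCCA went with repeated sequence. Of its 1026 matches at summits 47.4% lay in sequence that the reference genome marks as repetitive, as did 75.7% of its matches in the flanks, against 8.05% and 12.3% for CCAAGGTCA. Outside marked sequence its ratio was 13.2, near the 12.9 of TCAAGGTCA, and within it 3.81. Among its 486 matches in marked sequence the commonest base at each place gave the 24-base frame below, with the motif in capitals, and 97 matches (19.96%) shared at least 12 of its 15 outer bases. As background, the frame resembles part of B1, a short interspersed element of the mouse, but no repeat annotation was used here.
frame: tgtgagtTCAAGGCCAgcctgggc

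Summits of members lay in marked repeats less often than their surroundings, 13.2% (12.8 to 13.6) against 24.6% in the flanks. This value was 24.9% for the regions of both Oct4 libraries only, near their flanks at 26.1%. It was 13.3% against 26.3% for Sox2 and 9.45% against 24.97% for Nanog, so the lower share at summits was not particular to the members. The authors removed repetitive and poorly mapped reads, so repeats with many near-identical copies are not measured here.

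The motif was also varied 1 base at a time. Each of the 27 words that differ from TCAAGGTCA at 1 position, counted from 1 at its 5′ end, was searched in the same windows. The unchanged word had a ratio over the flanks of 10.5. Changes at the first base left it high, at 10.9 for T1A, 16.7 for T1C and 11.2 for T1G, as did those at the seventh apart from the repeat-rich T7C, at 11.4 for T7A and 9.39 for T7G. The lowest ratios came from changes inside the core, with 1.45 for A3C, 1.64 for G5A, 1.30 for G6C and 2.26 for G6A, and G5C was found in 3 members. Other changes inside the core kept a high ratio, with 10.02 for A4G, 8.03 for A4T and 10.4 for C2G. TCAAGGTCA or a word with 1 change from it was within 50 bp of the summit in 25.7% of members (25.2 to 26.2) and in 3.69% of flanking windows, whereas it was in 1.89% (1.70 to 2.08) of the regions of both Sox2 libraries only. Without any motif given, 5754 words of 8 letters were present at 150 or more summits. The 20 with the highest ratio over the flanks all held AAGG or its reverse complement, as did 39 of the first 40. Among words at 1000 or more summits CCAAGGTC came first, at 1721 summits and a ratio of 12.9. CAAGGTCA followed with 2887 and 11.9, and CAAGGACA, which is part of no spelling of the motif, was at 2190 with 9.38.

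The core CAAGG, looked at after these results were known, was far more widespread than the full motif. At least 1 copy lay within 50 bp of the native summit in 22435 members, 72.8% (72.3 to 73.3), and in 22.2% of windows 1000 bp away. The mean was 1.11 copies (SD 0.932 over members) against 0.252. In the regions of both Nanog, Oct4 and Sox2 libraries only, 16.6%, 14.7% and 17.1% held a copy, fewer than in their own windows 1000 bp away at 19.8%, 20.02% and 19.8%. Regions with an Nr5a2 peak are left out of these sets by rule, which can lower their shares with the core. Members often held several copies. Within 150 bp of the summit 12551 members, 40.7% (40.2 to 41.3), had at least 3 copies, against 4.79% of the windows 1000 bp away and 2.02% of the regions of both Sox2 libraries only. Several copies were not particular to the members, since 34.4% of regions with native Nr5a2 alone and 33.3% of those with both Nr5a2 and 1 other library had at least 3, and 70.2% and 67.7% held a copy within 50 bp. The mean there was 2.32 copies (SD 1.35 over members) against 0.776 in the surroundings. The 1867 members with no copy within 150 bp were 6.06% of the total. At the other end, 71 members (0.230%) had 8 or more copies, and the highest count was 29, in a member on the X chromosome at chrX:110288594-110289278. Whether such copies are units of a tandem repeat was not tested, so they need not be separate sites.

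The number of copies of the core within 150 bp rose with the strength of the peak. The share with the exact motif, counted within 50 bp, did not. These windows differ in width, and the exact motif was not counted by decile within 150 bp. With the members cut into deciles by their native score, the mean number of copies within 150 bp was 2.003 (1.961 to 2.04) in the lowest decile, 2.26 in the fifth and 2.82 (2.76 to 2.87) in the highest. No decile had a lower mean than the one before it, and the means 1000 bp away lay between 0.754 and 0.805. Within 50 bp of the summit the same means went from 1.08 (1.05 to 1.11) through 1.10 in the eighth decile to 1.19 (1.15 to 1.22). Most of the added copies thus lay farther out. The share with at least 3 copies went from 30.5% (28.9 to 32.1) to 55.4% (53.6 to 57.2). The exact motif was within 50 bp of the summit in 11.3% (10.2 to 12.5) of the lowest decile, 13.1% of the fifth and 11.003% (9.92 to 12.2) of the highest. Ranked by the BiD score instead, the copies of the core went from 2.16 (2.12 to 2.21) to 2.67 (2.62 to 2.73), whereas the exact motif went from 13.6% (12.4 to 14.8) down to 8.89% (7.91 to 9.95). The caller's threshold on the score was part of the rule, and these trends describe regions of 1 library each.

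**Figure D2:**
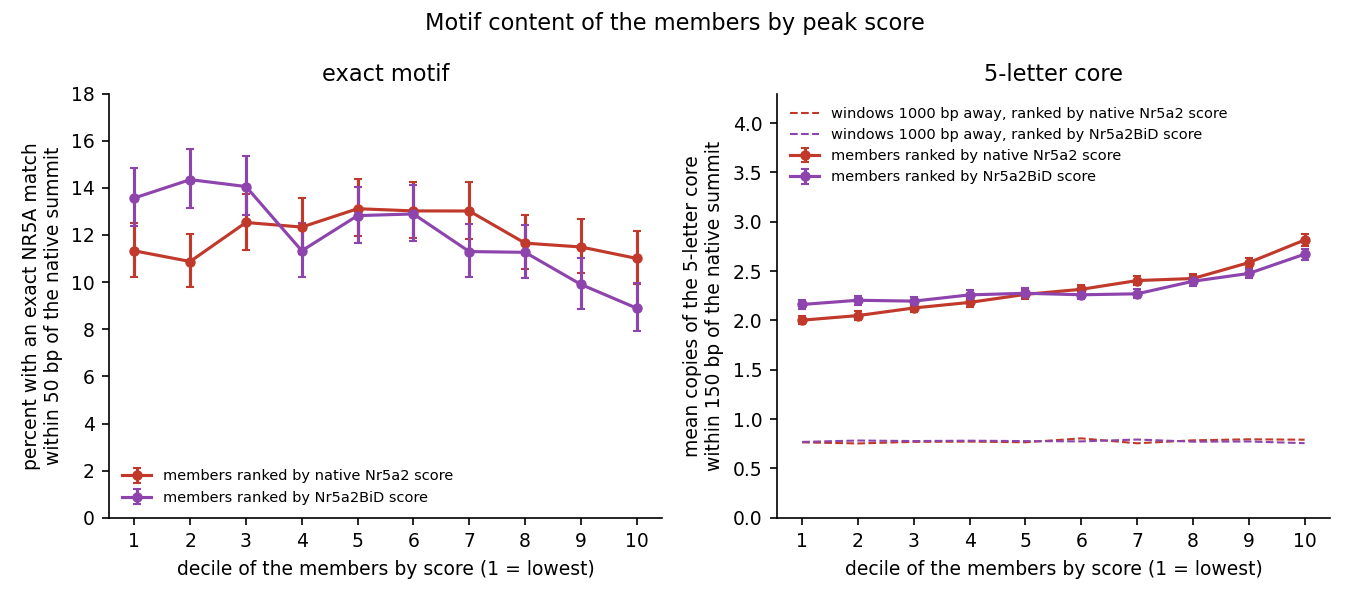
Motif content of the members cut into deciles by their native Nr5a2 score or their Nr5a2BiD score. The left panel gives the percent with an exact NR5A match within 50 bp of the native summit, the right panel the mean copies of the 5-letter core within 150 bp, and bars are 95% intervals over members. Core copies go from 2.003 to 2.82 along the native score and the dashed lines, windows 1000 bp away, stay between 0.754 and 0.805. The exact motif, counted in the narrower window, does not rise.

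Sharing a region with other factors went with less of the NR5A motif. Regions with both Nr5a2 peaks were sorted by how many of the other 6 libraries had a peak there. The share with the exact motif was 12.04% with none, 10.1% (9.47 to 10.8) with 1, 9.70% (9.03 to 10.4) with 2, 7.58% with 3, 7.35% with 4, 4.31% with 5 and 4.20% (3.64 to 4.82) with all 6. The share with the core within 50 bp went from 72.8% to 41.4% (39.96 to 42.8) over the same classes. Their strength went the other way, with median native scores of 172 in the members and 309 in regions of all 8 libraries. The share of summits within 2 kb of a start site was 15.04% in the members, 17.7% with 1 other library, 36.8% with 4 and 66.9% (65.5 to 68.3) with all 6, and the GC content of the window at the summit went from 49.8% to 58.7%. The part of promoters and GC content in the motif's decline over the classes was not tested. Within the members the motif was in 12.2% (11.3 to 13.2) of the 4633 promoter summits and in 12.003% (11.6 to 12.4) of the 26176 others.

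**Figure D3:**
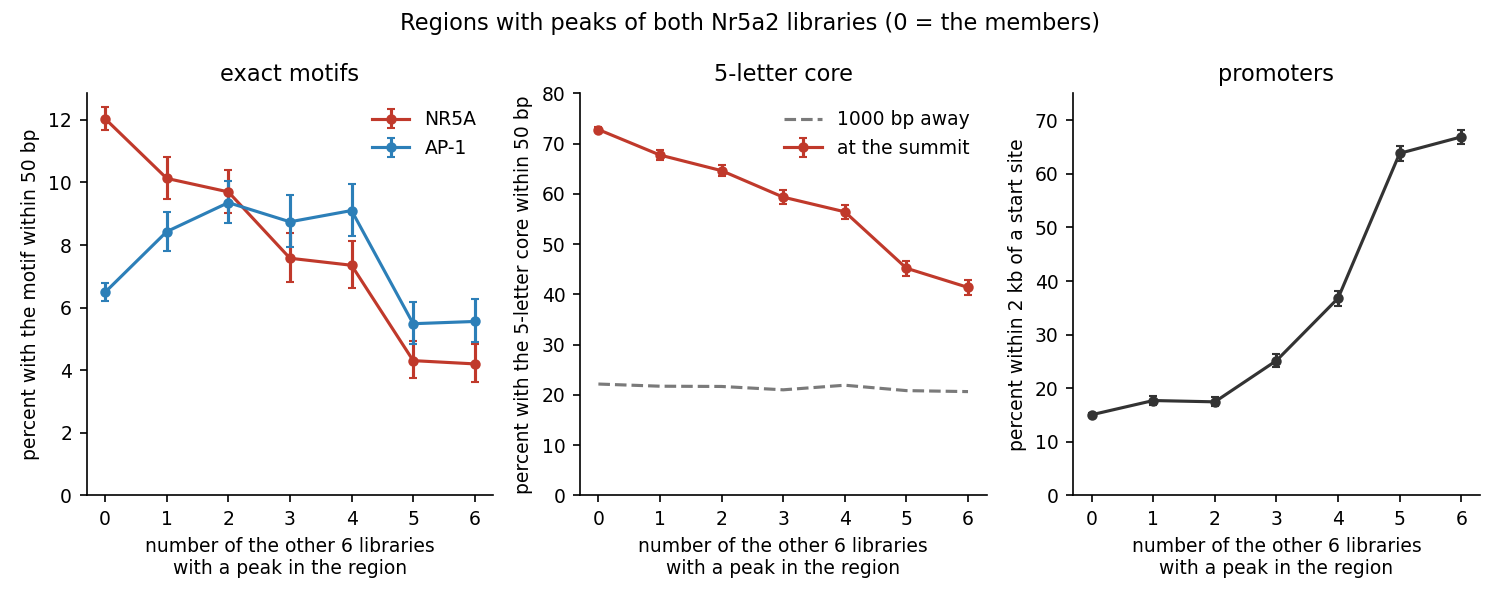
Regions with peaks of both Nr5a2 libraries, sorted by the number of the other 6 libraries with a peak there (horizontal axis, 0 for the members). The panels give the percent with the exact NR5A or AP-1 motif within 50 bp of the native summit, the percent with the 5-letter core at the summit and 1000 bp away, and the percent within 2 kb of a start site, with exact 95% intervals. The NR5A motif goes from 12.04% to 4.20% and promoters from 15.04% to 66.9%.

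Regions with a peak of 1 Nr5a2 library alone held the motif as well. It was at the summit of 13.99% (13.6 to 14.4) of the 30512 regions of native Nr5a2 alone and of 8.89% (8.15 to 9.67) of the 5524 regions of Nr5a2BiD alone, so the members lay between. AP-1 was at 3.799% in the regions of native Nr5a2 alone, at 6.49% (6.22 to 6.77) in the members and at 6.46% in those of Nr5a2BiD alone, where the summit is that of the BiD peak. Within the members, AP-1 went from 5.65% (4.86 to 6.52) in the lowest decile of the BiD score to 8.34% (7.39 to 9.37) in the highest, and from 6.49% to 6.43% along the native score.

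Of the 11 motifs searched, AP-1 had the highest ratio at the members' summits after NR5A, 4.12 (3.82 to 4.45). It was not particular to them, since the ratio was 6.04 for the regions of both Nanog libraries only and 4.995 for Sox2. Both motifs stood together within 50 bp in 181 members, and the NR5A motif was in 9.05% (7.83 to 10.4) of members with AP-1 against 12.2% (11.9 to 12.6) of those without. The element of TEAD factors had a ratio of 1.57, that of KLF factors 1.29 and that of CTCF 2.93 (1.97 to 4.35), the last from 60 members. RUNX, at 4.41 in the regions of both Nanog libraries only, was at 1.04 (0.952 to 1.14) in the members, and GATA and ETS were at 0.888 and 0.939. The elements of the other delivered factors were below their flanks or near them, with 0.743 (0.603 to 0.916) for the octamer of Oct4, 0.644 (0.487 to 0.851) for SOX and 0.900 (0.770 to 1.05) for NANOG. Those same elements were at 8.06, 5.20 and 3.39 in the regions of their own factor only. The rule leaves regions with Oct4, Sox2 or Nanog peaks out of the members, which can lower the members' ratios for these elements. GC content was 49.8% at the members' summits against 44.9% in their flanks. The parts of the rule and of GC content in these ratios were not tested. No other motif spelled out holds the core, and the SOX, NANOG and TEAD words share CATT. The exact NR5A and AP-1 motifs were both absent within 50 bp in 82.1% of members.

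**Figure D4:**
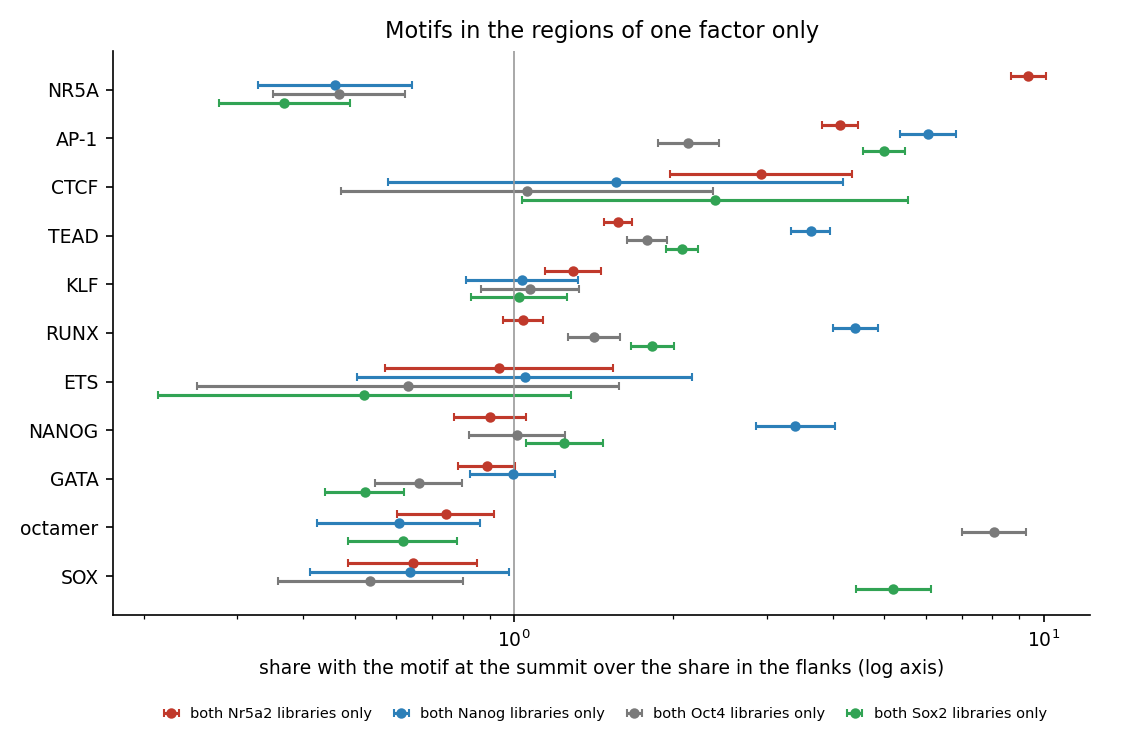
Share of regions with each of 11 motifs within 50 bp of the native summit divided by the share in flanking windows 500 bp away (log axis), with 95% intervals from the counts of matches, for the regions of both libraries of 1 factor only. In the members NR5A stands at 9.35 and AP-1 at 4.12, while octamer, SOX and NANOG have their highest ratios, 8.06, 5.20 and 3.39, in the regions of their own factor.

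Most members lay outside promoters. By the GENCODE M21 annotation 51.8% of native summits were in introns, 40.1% between genes, 2.64% in coding exons, 2.51% in untranslated parts of exons and 2.98% in non-coding exons. The coding exon share was 2.64% (2.47 to 2.83) against 0.837%, 0.551% and 0.784% for the regions of both Nanog, Oct4 and Sox2 libraries only. The share within 2 kb of a start site, 15.04% (14.6 to 15.4), was also above theirs at 10.4%, 9.54% and 8.51%, and positions that close to a start site make up 10.9% of the placed chromosomes. The median distance to a start site was 10.9 kb, against 15.3, 16.3 and 18.8 kb. GC content within 50 bp moved with this, at 49.8% in the members, 44.9% in their flanks and 43.9%, 40.2% and 40.3% in the other sets. Its part in these differences was not tested. Among 32851 RefSeq promoters of 300 bp, 2.22% (2.06 to 2.38) held an exact NR5A motif, and among the 997 that a member overlapped 6.42% (4.98 to 8.12) did. Members per Mb ran from 9.74 on chromosome 3 to 16.7 on chromosome 11, with 3.55 on the X chromosome, where they were 7.03% (6.50 to 7.59) of the union regions.

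The 12 strongest members, those on chromosome 18 and on the Nr5a2 gene left out, had scores of at least 861 in both lists. Of these, 7 were in introns, 4 between genes and 1 in a coding exon. Of the 12, 2 were within 2 kb of a start site of a protein-coding gene, and 6 were over 50 kb away. The member beside Kcnip4, a subunit of voltage-gated potassium channels, led with scores of 1331 (native) and 1232 (BiD) and heights of 88 and 102 tags. The native score of the one nearest to Ash2l, a core subunit of histone H3K4 methyltransferase complexes, was the highest of any member at 1333, with 889 in BiD and heights of 117 and 85 tags. The member at Bag6, a chaperone of membrane proteins, scored 1166 and 897. The others were nearest to Fam3c (151 kb), Map1b (9.99 kb), Cited2 (167 kb), Dpyd (385 kb), Lhpp (43.8 kb), C8b (24.8 kb), Iyd (81.4 kb), Nalcn (75.1 kb) and 4931417E11Rik (1372 kb). Of the 12, 10 held the core within 50 bp of the native summit, and the copies within 150 bp ran from 2 to 8, with a median of 3. Over all members 72.8% held the core within 50 bp, and the mean within 150 bp was 2.32 copies. The Nalcn member had the 8 copies, 4 of them in the printed window, where they stand at even spacing. The summits of the 2 libraries were within 100 bp of each other in all but the Dpyd member, where they were 312 bp apart.

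Several members lay on the gene of the delivered factor. The region on a coding exon of Nr5a2 at chr1:136940244-136941306 had scores of 1199 and 1313 and heights of 75 and 83 tags, and 7 members in all lay on this gene, 3 of them with the summit on a coding exon. No other library had a peak in these regions, as the rule demands. The delivered vector carries Nr5a2 coding sequence, and tags from it cannot be told apart here from tags of the gene. Without the 4 members that overlap exons of the gene, 30810 remain.

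Genes were counted as having a member where a native summit lay within 10 kb of one of their annotated start sites. Of 21938 protein-coding genes, 8373 (38.2%) had one. For the smaller sets of regions of both Nanog, Oct4 and Sox2 libraries only, the share was 11.8%, 15.9% and 17.0%. The lists below hold textbook targets of NR5A2 and groups that matter in reprogramming, and some genes stand in more than 1 list.

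Among 10 genes of bile acid and cholesterol handling, 9 had a member within 10 kb, against 2 for each of the other 3 sets. The background is 38.2% for the members and 11.8%, 15.9% and 17.0% for the smaller Nanog, Oct4 and Sox2 sets. Nr0b2, whose promoter is printed above, had 2, the nearer one 0.260 kb from the start site with scores of 1234 (native) and 859 (BiD) and heights of 103 and 84 tags. Cyp8b1, the sterol hydroxylase that sets the cholic acid share, had a member 0.052 kb from a start site, the nearer of 2, with scores of 91.7 and 74.3. Scarb1, the receptor for high-density lipoprotein, had 6, the nearest 0.262 kb away with scores of 96.7 and 119. Abcg5 and Abcg8, which together form the sterol exporter and are transcribed from neighbouring start sites, shared 1 member 0.880 and 1.004 kb away with scores of 575 and 486. Cyp7a1, the rate-limiting enzyme of bile acid synthesis, had a weaker member at 9.85 kb with scores of 109 and 97.4. Abcc2, an exporter of conjugates into bile, was the exception, and its nearest member was 12.5 kb away with scores of 586 and 499.7.

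Among 10 genes of steroid synthesis, 7 had a member, beside a background of 38.2%. The Nanog, Oct4 and Sox2 sets were near 0, 2 and 3 of these genes, beside backgrounds of 11.8%, 15.9% and 17.0%. The 3 genes without a member were Star, Cyp11a1 and Cyp19a1. Star brings cholesterol into mitochondria (nearest member 16.6 kb away), Cyp11a1 cleaves its side chain (19.8 kb), and Cyp19a1 is the aromatase (32.4 kb). Cyp17a1, which makes androgen precursors, had 2, the nearer one 0.094 kb from the start site with scores of 256 and 126 and heights of 42 and 26 tags. Inha, a subunit of inhibin, had a member 4.82 kb away with a native score of 336 and a BiD score of 75.2. Nr0b1, a corepressor of NR5A receptors, had a member at 4.35 kb with a native score of 59.2 and a BiD score of 178. Among 6 genes of acinar pancreas 2 had a member, Cel (6.95 kb, scores 254 and 153) and Ptf1a, the acinar regulator (2.73 kb, scores 956 and 288). This share of 33.3% is near the background. The heights at Ptf1a were 83 tags in the native library and 27 in BiD.

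The pluripotency list was near the background of 38.2%, with 7 of 19 genes (36.8%). Tbx3 had a member 0.153 kb from a start site with scores of 331 and 238, Esrrb one at 4.51 kb (151 and 161), Fgf4 2 with the nearest at 4.08 kb (191 and 64.9), and Sall4, Dppa5a, Utf1 and Tdgf1 had 1 each between 6.90 and 9.86 kb away. Pou5f1, Nanog, Sox2, Klf4 and the other 8 had none within that distance. The Oct4 and Sox2 sets, with backgrounds of 15.9% and 17.0%, had no region near any gene of this list. The Nanog set, with a background of 11.8%, had regions near 2. Within 100 kb the genes had a median of 6 members, against 4 over all genes. Of the 3 cell cycle genes, Ccnd1 had 1 member (4.65 kb, scores 53.01 and 80.5), while Myc and Ccne1 had none.

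Nuclear receptor genes had a member in 28 of 48 cases (58.3%), against 6, 9 and 7 for the Nanog, Oct4 and Sox2 sets. Those smaller sets have backgrounds of 11.8%, 15.9% and 17.0%. The 28 include Nr5a2 itself, whose nearest member is the coding exon region above, where tags of the vector cannot be told apart. The bile acid receptor gene Nr1h4 had 4, the nearest 0.062 kb from a start site with scores of 454 and 351. The estrogen receptor gene Esr1 had 1 at 0.012 kb (181 and 115), Ppard 6 with the nearest at 0.366 kb (287 and 127), and Hnf4a, a hepatocyte and epithelial regulator, 3 with the nearest at 4.57 kb (439 and 274). Nr5a1, the closest relative of Nr5a2, had 2 with scores of 482 and 468 at the nearer one, 3.19 kb away. Of the 48 genes, 4 had no member within 100 kb, namely Nr2f1, Nr2f2, Nr3c2 and Hnf4g.

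The Nanog, Oct4 and Sox2 sets, with backgrounds of 11.8%, 15.9% and 17.0%, were near 3, 2 and 2 of 14 epithelial genes. Of these 14 genes, 11 had a member (78.6%), beside the background of 38.2%. They included Cldn7, a tight junction protein (0.369 kb, scores 682 and 418), Krt8 (1.20 kb, 442 and 108), Esrp1, a splicing regulator of epithelia (1.11 kb, 375 and 62.1), and Cdh1, E-cadherin (1.46 kb, 281 and 53.1). At the nearest member of each of these 11 genes, the BiD summit was lower than the native one at 9, from Cdh1 (12 against 32 tags) to Cldn3 (26 against 27), and higher at Esrp2 (55 against 43) and Grhl2 (28 against 25). Over all members the BiD summit was the lower one in 66.1%, and a difference of these genes from that share was not tested. Of 18 fibroblast genes 8 had a member, and this 44.4% is near the background of 38.2%. Among them were Col1a1 (1.24 kb, scores 322 and 158), Col1a2 (0.731 kb, 286 and 259), Thy1 (0.398 kb, 187 and 91.1) and Zeb2 (0.033 kb, 172 and 121). The Nanog, Oct4 and Sox2 sets were near 8, 6 and 7 of the same 18 genes, beside their own backgrounds of 11.8%, 15.9% and 17.0%. Neighbouring genes can share a member, a list of few genes has little precision, and a peak near a gene does not show that the gene responds.

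**Figure D5:**
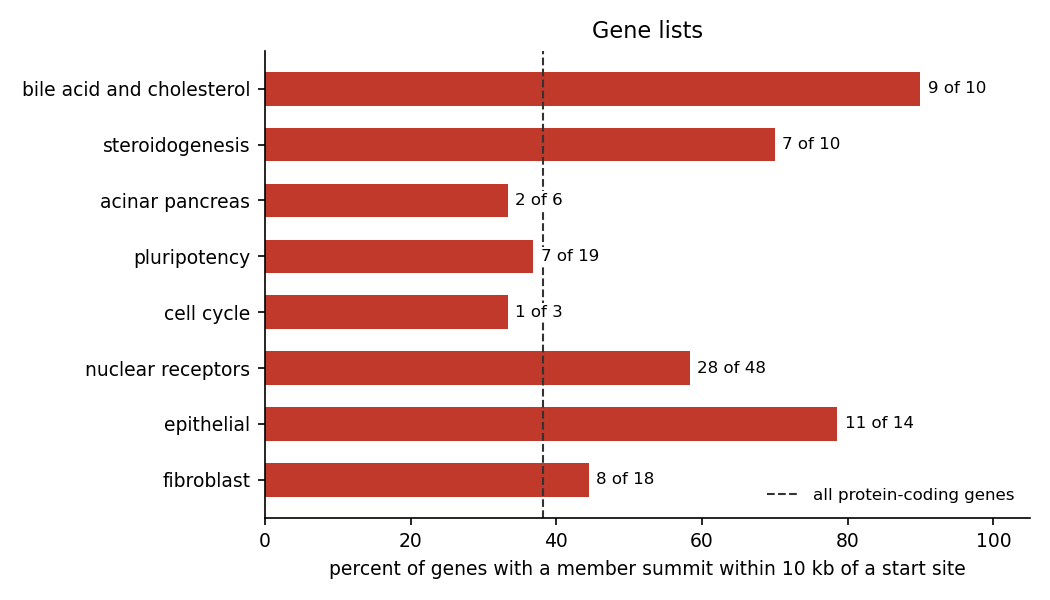
Percent of the genes of each list with a member summit within 10 kb of an annotated start site, with the counts beside each bar. The dashed line is the 38.2% of all protein-coding genes. Bile acid and cholesterol genes (9 of 10), epithelial genes (11 of 14), steroid synthesis genes (7 of 10), nuclear receptor genes (28 of 48) and, by less, fibroblast genes (8 of 18) extend past it, and pluripotency genes (7 of 19) end just short of it.

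Members were spread over the genome, and the densest windows of 100 kb held 9 each, a count that 6 windows share. The one at chr15:101400001-101500000 covers the keratin genes Krt7, Krt81, Krt83, Krt86, Krt87 and Krt88, with 9 members among 18 union regions. Others cover Inpp5d (chr1:87600001-87700000, 9 of 16), Tent5c (chr3:100400001-100500000, 9 of 12), Cebpe and Slc7a8 (chr14:54700001-54800000, 9 of 20), Kdm4b and Ptprs (chr17:56400001-56500000, 9 of 21), and Glt6d1, Lcn9, Sohlh1 and Kcnt1 (chr2:25800001-25900000, 9 of 12). In each window 1 or 2 of the 9 members held an exact NR5A motif, which 12.04% of all members held within 50 bp of the native summit. The median scores of the windows' members were highest in the Cebpe window for the native library (312) and in the Glt6d1 window for BiD (153).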

How the data were processed

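Flag CUT&Tag was analysed for 8 libraries, 1 per group, grouped by title. Per the submitters' processing notes and the methods, the authors trimmed reads (Trim Galore 0.6.4), mapped them to mm10 (Bowtie2 2.4.5), removed repetitive, poorly mapped and mitochondrial reads (SAMtools 1.16.1) and called peaks without a control (MACS 1.4.2). The methods speak of merging replicates, whereas the reporting summary states that this assay was done once. The deposited score of a peak, as the authors' caller wrote it, is -log10 of its p-value multiplied by 10, and 50, at p = 1e-05, is the lowest. The deposited summit height is a signal in tags, not scaled to depth. Read depth is not in the peak lists, and the read pairs per library in the reporting summary entered no calculation. The lists held between 54794 (native Oct4) and 120594 (Sox2BiD) peaks, with 108030 for native Nr5a2 and 76217 for Nr5a2BiD. Absence of a peak says less where a library is shallow. Tn5 cuts open chromatin preferentially, which no control library measures here.

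Peaks were merged at 1 bp of overlap and assigned to libraries. Sequence came from GRCm38.p6, the assembly of mm10, and genes from GENCODE M21. Of 661009 peaks, 110 were off placed chromosomes. Windows of 50 bp to each side of the native summit were searched for motifs on both strands and compared with 2 flanking windows at 500 bp. Copies of the core were compared with windows at 1000 bp. Besides NR5A the motifs were octamer ATGCAAAT, SOX CCATTGTT, NANOG GCCATTA, AP-1 (TGACTCA or TGAGTCA), TEAD (CATTCCA or CATTCCT), RUNX AACCACA, KLF (GGGCGTGG or GGGTGTGG), ETS CCGGAAGT, AGATAAG for GATA factors, and CTCF by its consensus. Shares have exact (Clopper-Pearson) 95% intervals, ratios have intervals from the match counts on the log scale, and mean copies have normal intervals over members. There was no replicate, so no test was run. Named members were the 12 with the highest lower score of the 2 lists, off chromosome 18 and off the Nr5a2 gene, named by the nearest protein-coding start site. Named genes came from 8 lists, and the 5 densest windows of 100 kb were to be named, of which 6 tie. Some listed genes share their nearest member, among them Abcg5 with Abcg8, Nr1d1 with Thra, Cldn3 with Cldn4 and Nanog with Dppa3. Members and lists were chosen with earlier results of these data known. Region merging, motif search and distances were tested on simulated data. Python 3.11.15, NumPy 2.4.6, pandas 2.3.3, SciPy 1.17.1 and matplotlib 3.10.9 were used.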

Additional observations from a re-analysis of the deposited data

How the results depend on the processing

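The number of members, 30814, was 19241 with peaks of a score of 100 or more only, and it stayed within 1.5 times under the other 5 alternatives. The share with an NR5A motif, 12.04%, was 11.5% where summits within 100 bp counted as shared, 11.004% with scores of 100 or more, 11.4% with each list held to its best 54794 peaks, 10.5% at the Nr5a2BiD summit, 5.40% within 25 bp and 17.8% within 100 bp. The ratio over the flanks, 9.35, was 7.93 with scores of 100 or more, 8.15 with equal peak numbers, 8.40 at the Nr5a2BiD summit, 6.87 within 100 bp and 11.6 against flanks at 1000 bp. The promoter share, 15.04%, was 17.03% with summits within 100 bp, 15.9% with scores of 100 or more, 16.4% with equal peak numbers, 5.16% within 500 bp and 10.2% with protein-coding start sites only. The share of genes with a member was 74.3% at 50 kb against 38.2% at 10 kb. The log2 height ratio, -0.23, was -0.21 with scores of 100 or more and -0.29 with equal peak numbers. Of the 48 alternative values, 26 lay outside the interval of the reported value, or beyond 1.5 times it for the number of members. The other 22 lay within. Only the ratio over the flanks and the log2 height ratio have a direction, and neither changed it under any alternative. The counts, shares and mean copies have no direction that could change. Alternatives for the height ratio and the core were added after the data were seen. The mean copies of the core within 150 bp ran from 2.26 to 2.41. No paired analysis was possible because each group holds 1 library. Counts limit rare motifs such as CTCF, and membership depends on each library's depth, which the peak lists do not give.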
